A study of Homo sapiens with 4 samples.

Results

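The genes described here are 10 regulators of epithelial and mesenchymal cell state, among the 54628 genes of each count table. The members were chosen by name: the transcription factors ZEB1, ZEB2, SNAI1, SNAI2 and TWIST1, the splicing regulators ESRP1 and ESRP2, and the epithelial transcription factors GRHL2, OVOL1 and ELF3. Poly(A) RNA was sequenced from Panc1, an established human line from a pancreatic ductal carcinoma, in 4 libraries. The labels put 2 libraries under siRNA (small interfering RNA) directed at HMGB2, an abundant DNA-bending protein of chromatin, and 2 under scramble siRNA, a control sequence. All 4 come from this single line, and the labels give no dose, time or siRNA sequence and do not say that the libraries of a group came from separate cultures. The p-values below therefore measure the spread between libraries, which may be technical.

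In epithelial-to-mesenchymal transition (EMT), epithelial cells lose their junctions and gain motile, mesenchymal features. ZEB, SNAIL and TWIST factors bind short DNA motifs called E-boxes and repress junction genes such as CDH1, which encodes E-cadherin. On the other side, ESRP1 and ESRP2 hold the splicing of many transcripts in its epithelial form, GRHL and OVOL factors sustain epithelial genes and repress ZEB genes, and ELF3 is an ETS-family factor characteristic of epithelia. ZEB factors and the miR-200 family of microRNAs repress each other.

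HMGB2 went against the labels. It had 4021 and 2746 counts under the HMGB2 siRNA label, against 346 and 319 counts under the scramble label. It was thus 8.43-fold higher under the label of its own siRNA (log2 fold change 3.07 ± 0.08 SE, adjusted p = 1.54e-33, edgeR quasi-likelihood test). In all 4 tables the header of the count column names the opposite treatment to the label. Groups are named here as the labels name them, so every direction below is the HMGB2 siRNA label, with more HMGB2 RNA, over the scramble label, with less.

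The 4 libraries held 20340695 to 31852391 gene counts. Of 6 duct epithelium markers, KRT8 had 1960 to 2772 CPM (counts scaled by the TMM-adjusted library size) and KRT19 397 to 722 CPM over the 4 libraries. KRT18 had 886 to 1141 CPM, SOX9 112 to 147 CPM and EPCAM 16.6 to 18.5 CPM, while KRT7 was low at 2.59 to 4.74 CPM. Under the HMGB2 siRNA label, KRT7, KRT8 and KRT19 rose, SOX9 fell (log2 fold change -0.25), and KRT18 and EPCAM did not pass. The KRT8 change was 0.29 on the log2 scale and 0.11, without passing, when scramble replicate 2 was left out; KRT7 and KRT8 also did not pass with DESeq2 (0.75 and 0.29). KRT7 changed by 0.74 and did not pass without replicate 1 labelled HMGB2 siRNA (0.72), and SOX9 did not pass without replicate 2 of that label (-0.21). All 6 endothelial markers summed to 0.0975 to 0.35 CPM. Among 6 leukocyte markers CD3E was at 0 and PTPRC, which also lies on an alternative sequence, had 0 to 1 counts, while CD68, a lysosomal protein, had 98.7 to 121 CPM and CD14 0.48 to 1.56 CPM. Among 6 fibroblast markers DCN was at 0, LUM had at most 1 count and COL1A1 had 55.2 to 76.7 CPM. COL3A1 rose (log2 fold change 1.14) but did not pass without replicate 1 labelled HMGB2 siRNA (1.002) or with DESeq2 (1.14). The part of other cell types in the results was not tested.

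Only part of the regulator set was expressed at a level that could be tested. ZEB1, SNAI1, ESRP1, ESRP2 and ELF3 passed the low-count filter, and ZEB2, SNAI2, TWIST1, GRHL2 and OVOL1 did not. Levels of different genes are given as TPM, the length-scaled transcript share, which divides counts by the exon length in the tables. By mean TPM over the 4 libraries, ELF3 came first at 18.9 TPM, followed by ESRP2 at 15.6, SNAI1 at 12.4, ZEB1 at 11.3 and ESRP1 at 0.835 TPM. The ranges of ELF3 (13.4 to 23.0 TPM) and ESRP2 (14.02 to 17.3 TPM) overlapped, as did those of SNAI1 (12.2 to 12.8 TPM) and ZEB1 (10.4 to 12.8 TPM), while ESRP1 (0.496 to 1.15 TPM) stood below these 4. The other 5 members reached at most 0.0892 TPM in any library.

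**Figure D1:**
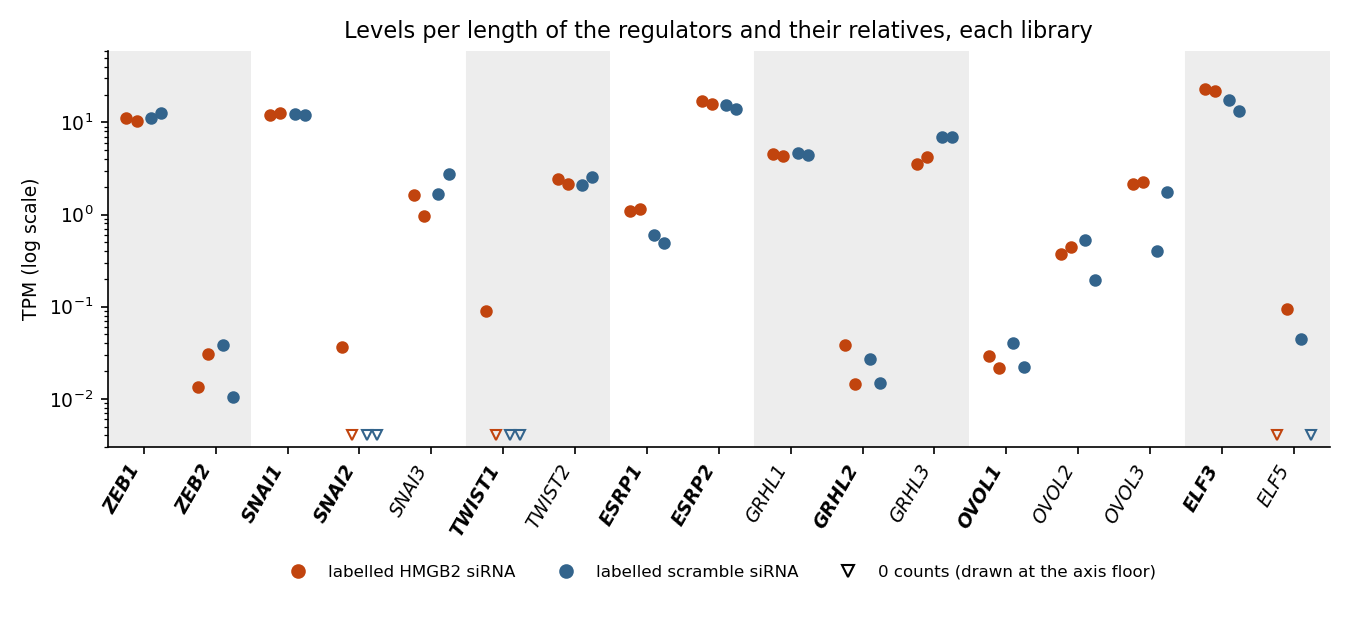
Levels in TPM (log axis) of the 10 regulators (bold) and of other members of their families, with 1 point per library, labelled HMGB2 siRNA in orange and labelled scramble in blue; open triangles mark 0 counts. ZEB1 at 10.4 to 12.8 TPM lay above ZEB2 in every library, SNAI1 at 12.2 to 12.8 TPM above SNAI2, and ESRP2 at 14.02 to 17.3 TPM above ESRP1, while GRHL1 and GRHL3 lay close together under the HMGB2 siRNA label and GRHL3 was the higher under the scramble label.

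Among the EMT transcription factors, the best known E-box repressors ZEB1 and SNAI1 were present and neither passed the test. ZEB1 (GRCh38 chromosome 10, 31318417 to 31529804, plus strand), a zinc finger repressor of CDH1, had 1150 and 716 counts under the HMGB2 siRNA label, against 813 and 858 counts under the scramble label. On the CPM scale this was 36.6 and 34.9 CPM, against 36.9 and 41.2 CPM. Both libraries labelled HMGB2 siRNA were lower, but the nearest libraries of the groups differed by less than the libraries within each group. The log2 fold change was -0.13 ± 0.08 (SE) and did not pass (edgeR adjusted p = 0.284), with a 95% interval of the difference from -0.30 to 0.05.

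SNAI1 (chromosome 20, 49982980 to 49988886, plus strand), which encodes SNAIL, had 263 and 183 counts under the HMGB2 siRNA label, against 190 and 170 counts under the scramble label. These were 8.37 and 8.92 CPM, against 8.63 and 8.16 CPM, so the groups overlapped. Its log2 fold change of 0.04 ± 0.14 (SE) did not pass (edgeR adjusted p = 0.882), its 95% interval ran from -0.25 to 0.33, and its sign turned with upper-quartile (-0.014) and total-count (-0.0096) scaling and without scramble replicate 2 (-0.0017).

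The remaining EMT factors were at the limit of detection. ZEB2, the paralog of ZEB1, had 2 and 3 counts under the HMGB2 siRNA label, against 4 and 1 counts under the scramble label. TWIST1, a basic helix-loop-helix factor, had 2 and 0 counts, against 0 and 0 counts, and SNAI2, which encodes SLUG, had 1 and 0 counts, against 0 and 0 counts, in the same order of labels. A count of 0 allows up to 3 counts in a library, which is 0.0954 to 0.146 CPM here and covers counting error only. No difference in these 3 genes was detectable at this depth.

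Relatives of the scarce members were easier to see. TWIST2, the paralog of TWIST1, had 2.43 and 2.16 TPM in the libraries labelled HMGB2 siRNA, against 2.12 and 2.55 TPM in those labelled scramble, and did not pass (log2 fold change 0.0093, edgeR adjusted p = 0.983). Some exons of TWIST2 are also annotated on an alternative sequence, so its level is uncertain. SNAI3 had 1.63 and 0.959 TPM, against 1.67 and 2.74 TPM, and did not pass either (edgeR adjusted p = 0.173). The antisense transcript ZEB1-AS1, which shares 556 exonic bases with ZEB1 on the opposite strand, had a log2 fold change of -0.13 (edgeR adjusted p = 0.737), and reads in that stretch cannot be assigned without the strand setting of the counting. ZEB2-AS1 and MIR200CHG, the host transcript of part of the miR-200 family, had 0 counts in every library; microRNAs themselves are not measured in poly(A) libraries of this kind.

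The epithelial splicing regulators were both higher in each library labelled HMGB2 siRNA, and ESRP1 passed the test. ESRP1 (chromosome 8, 94640999 to 94707466, plus strand) had 55 and 38 counts under the HMGB2 siRNA label, against 21 and 16 counts under the scramble label. This was 1.75 and 1.85 CPM, against 0.954 and 0.768 CPM, and the groups did not overlap. ESRP1 was 2.07-fold higher, a log2 fold change of 1.05 ± 0.36 (SE, edgeR adjusted p = 0.0195). These are low counts. The call was lost without replicate 1 labelled HMGB2 siRNA (1.10, adjusted p = 0.134), without replicate 2 of that label (1.02, adjusted p = 0.127) and without scramble replicate 2 (0.91, adjusted p = 0.0994), and over all alternatives the adjusted p ran from 0.00814 to 0.134, where DESeq2 gave none.

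ESRP2 (chromosome 16, 68225968 to 68236175, minus strand), the more abundant paralog, had 1507 and 918 counts under the HMGB2 siRNA label, against 945 and 790 counts under the scramble label. On the CPM scale this was 47.9 and 44.7 CPM, against 42.9 and 37.9 CPM. The groups did not overlap, but the log2 fold change of 0.20 ± 0.08 (SE; 95% interval 0.03 to 0.36) missed the threshold (edgeR adjusted p = 0.0598). Without scramble replicate 1 it passed (0.30, adjusted p = 0.00186), and over all alternatives the adjusted p ran from 0.00186 to 0.497. ESRP2 shares 2910 exonic bases, 42.2% of its own, with NFATC3 on the opposite strand. NFATC3 had a log2 fold change of 0.22 (edgeR adjusted p = 0.0961). How reads in that stretch were assigned is not known without the strand and overlap settings of the counting, so the level of ESRP2 is uncertain.

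ELF3 showed the clearest difference of the set. ELF3 (chromosome 1, 202010583 to 202017183, plus strand), an ETS factor of epithelia, had 965 and 603 counts under the HMGB2 siRNA label, against 516 and 363 counts under the scramble label. This corresponded to 30.7 and 29.4 CPM, against 23.4 and 17.4 CPM. The libraries labelled HMGB2 siRNA lay close together and above both others, which were themselves well apart. ELF3 was 1.47-fold higher, a log2 fold change of 0.56 ± 0.10 (SE, edgeR adjusted p = 3.11e-05). The size depended on the scramble libraries: without scramble replicate 2 it was 0.36 (adjusted p = 0.00146) and without scramble replicate 1 it was 0.80 (adjusted p = 1.73e-12), and over all alternatives the adjusted p ran from 1.73e-12 to 0.00285. ELF3 shares no exonic base with another gene in the tables. The antisense neighbour ELF3-AS1 had a log2 fold change of 0.86 and did not pass (edgeR adjusted p = 0.0518).

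GRHL2, a grainyhead factor, and OVOL1, a zinc finger factor, were near 0. GRHL2 had 4 and 1 counts under the HMGB2 siRNA label, against 2 and 1 counts under the scramble label, and OVOL1 had 2 and 1 counts, against 2 and 1 counts. Their relatives carried most of the reads of these families, but the OVOL relatives were scarce too. OVOL2 had 9 and 7 counts under the HMGB2 siRNA label, against 9 and 3 counts under the scramble label, and could not be tested. OVOL3 had 23 and 16 counts, against 3 and 12 counts, and did not pass (edgeR adjusted p = 0.126). GRHL1 had 4.53 and 4.33 TPM, against 4.69 and 4.47 TPM, and did not pass (edgeR adjusted p = 0.923). GRHL3 had 3.57 and 4.17 TPM in the libraries labelled HMGB2 siRNA, against 7.001 and 7.012 TPM in those labelled scramble, and fell by 0.85 on the log2 scale (SE 0.15, edgeR adjusted p = 1.99e-05), the opposite sign to ELF3 and ESRP1.

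**Figure D2:**
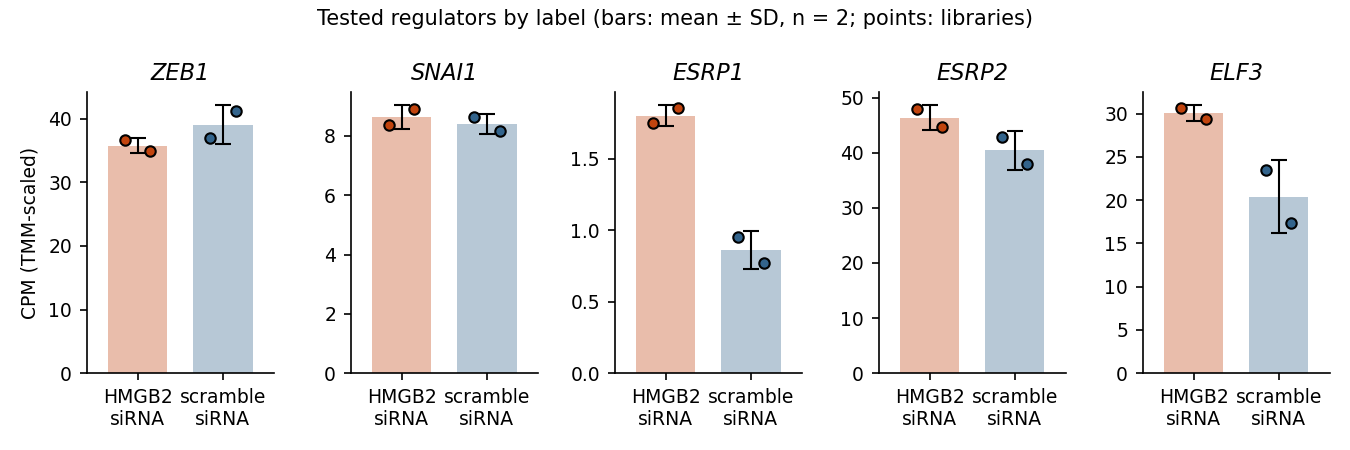
CPM of the 5 testable regulators, with bars for the mean ± SD (n = 2 libraries per label) and 1 point per library; the CPM axes start at 0 and differ between panels. The orange libraries labelled HMGB2 siRNA lie above the blue scramble libraries for ESRP1 (1.75 and 1.85 against 0.954 and 0.768 CPM), ESRP2 and ELF3, and SNAI1 overlaps.

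Over the set, 2 of the 5 testable regulators were called higher and 0 lower in the libraries labelled HMGB2 siRNA. Over all 15161 genes tested, 16.7% were called higher and 14.1% lower (30.8% in either direction), so calls were common in this comparison and 2 of 5 carries no weight as a count. The groups did not overlap for ZEB1, ESRP1, ESRP2 and ELF3, as for 63.7% of all genes tested (32.0% higher and 31.6% lower under the HMGB2 siRNA label). The share of all calls that were higher was 54.3% with TMM scaling, 42.0% with upper-quartile and 43.3% with total-count scaling. ELF3 kept its call under all 3 other scalings (log2 fold changes 0.51 to 0.55), and so did ESRP1 (1.002 to 1.05). With 2 libraries against 2, an exact two-sided permutation test of a single gene cannot give a p below 0.333, so each call rests on the spread shared between genes.

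Ratios within a library do not depend on scaling. Per length, ELF3 stood at 2.07 and 2.08 times ZEB1 in the libraries labelled HMGB2 siRNA, against 1.57 and 1.05 times in those labelled scramble. ESRP2 stood at 1.56 and 1.52 times ZEB1, against 1.38 and 1.10 times. ESRP1 amounted to 6.38% and 7.24% of ESRP2, against 3.89% and 3.54%. In all 3 ratios, which were chosen after the values were seen, the groups did not overlap. The ratios restate the levels of genes described above and are no separate test. ESRP2 shares 42.2% of its exonic bases with NFATC3, which bears on both of its ratios. Summed TPM of the 5 EMT factors was 23.4 and 23.2, against 23.6 and 25.0, while that of GRHL2, OVOL1 and ELF3 was 23.0 and 21.7, against 17.4 and 13.4, nearly all of it from ELF3.

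**Figure D3:**
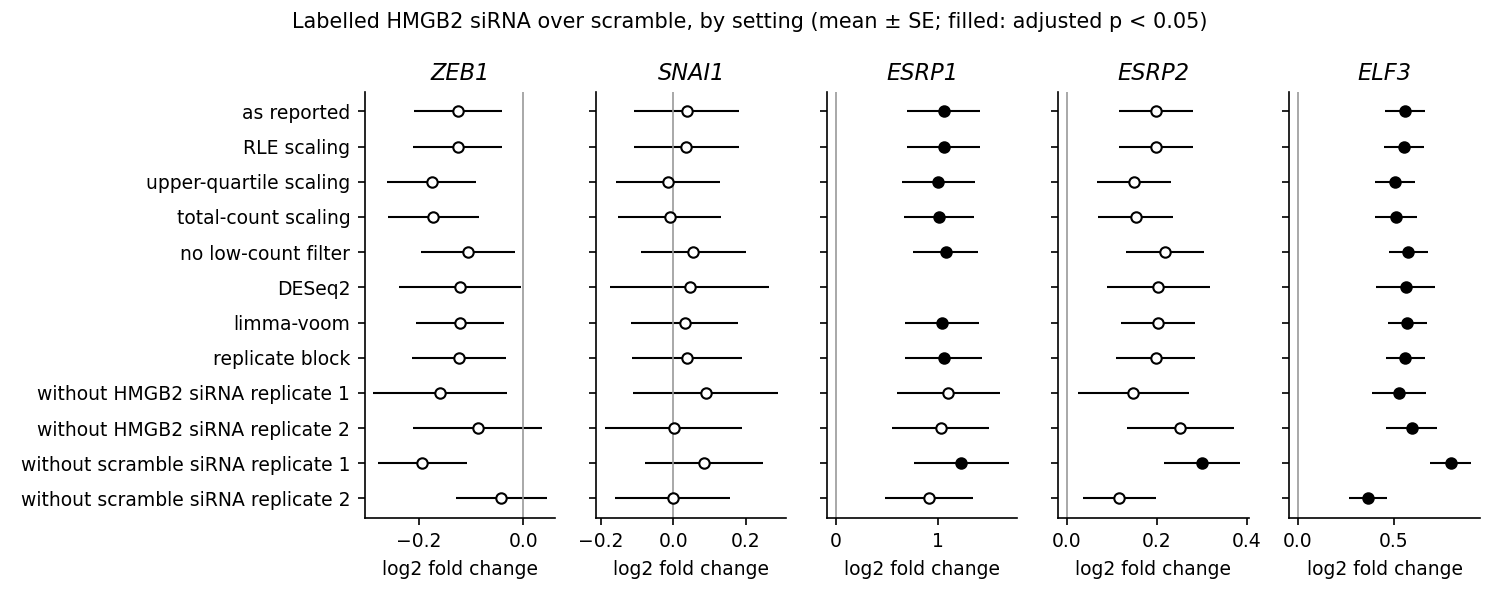
Log2 fold change ± SE of each testable regulator, labelled HMGB2 siRNA over scramble, as reported and under each alternative (filled points: adjusted p under 0.05; DESeq2 gave no adjusted p for ESRP1, which is not drawn there). ELF3 stays filled from 0.36 to 0.80, ESRP1 loses its call without 3 of the libraries, and SNAI1 lies on both sides of 0.

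The promoters of ELF3, which rose, and of ZEB1, which did not change detectably, are shown as examples from the epithelial and the EMT factors of the set. The windows run from 250 bases before to 50 after a RefSeq transcript start (GRCh38.p14), at chr1:202010337-202010636 (plus strand) for ELF3 and at chr10:31318167-31318466 (plus strand), the first of 7 ZEB1 windows, for ZEB1. Capitals mark CACCTG or its reverse complement CAGGTG, the E-box form bound by ZEB and SNAIL factors.
ELF3: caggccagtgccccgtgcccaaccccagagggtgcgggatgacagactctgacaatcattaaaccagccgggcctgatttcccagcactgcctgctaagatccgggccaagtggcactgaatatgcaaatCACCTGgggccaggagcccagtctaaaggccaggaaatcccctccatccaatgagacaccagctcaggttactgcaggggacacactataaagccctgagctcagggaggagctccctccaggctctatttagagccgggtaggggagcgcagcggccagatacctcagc
ZEB1: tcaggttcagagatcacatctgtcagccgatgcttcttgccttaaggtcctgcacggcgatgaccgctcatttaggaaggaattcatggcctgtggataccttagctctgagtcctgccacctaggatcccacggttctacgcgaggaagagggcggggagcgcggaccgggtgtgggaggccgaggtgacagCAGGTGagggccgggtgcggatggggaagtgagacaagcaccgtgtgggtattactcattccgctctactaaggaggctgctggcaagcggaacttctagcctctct
The ELF3 window held the E-box once, 120 bases before the transcript start, and this ZEB1 window held it once, 57 bases before the start. Windows were available for 3 of the 10 regulators, and 3 of their 9 windows (33.3%) held the motif. Another ZEB1 window held 3 copies, while the remaining ZEB1 windows and the ZEB2 window held none. Of all 35116 windows, 20.6% held the motif on either strand. Among 24 windows of the list of junction and epithelial genes described next, 15 (62.5%) held it; these genes were listed because they are known to be repressed by ZEB or SNAIL factors, so this is a description of the list. Whether any factor bound these sites was not measured.

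Genes that ZEB and SNAIL factors are known to repress included more that rose than fell. Of 30 listed, 24 could be tested, and 10 rose, 2 fell and 12 did not pass in the libraries labelled HMGB2 siRNA. Over all genes tested, 16.7% were called higher and 14.1% lower, the shares to set beside this and each list count below. The lists were chosen with earlier results of these data known, so an excess in a list is a description and not a test. The median log2 fold change of the 24 tested genes was 0.12, against -0.0063 over all genes tested. CDH1 (E-cadherin) had 19.6 and 20.5 CPM in the libraries labelled HMGB2 siRNA, against 8.90 and 8.40 CPM in those labelled scramble, and was 2.31-fold higher (edgeR adjusted p = 1.06e-11). CLDN4, a tight junction claudin, had 138 and 139 CPM, against 82.1 and 76.3 CPM (1.75-fold). KRT19, a duct keratin, rose 1.61-fold and CDS1, an enzyme of phosphoinositide synthesis, 1.35-fold. MARVELD3, a tight junction protein, and SPINT1, a protease inhibitor of epithelia, were the genes that fell, with log2 fold changes of -1.065 and -0.55. MARVELD3 was low, with 18 and 19 counts under the HMGB2 siRNA label, against 29 and 36 counts under the scramble label. SPINT1 had 7.70 and 7.41 CPM, against 13.6 and 8.45 CPM, so its scramble libraries were well apart. EPCAM, CLDN7 and OCLN, also of this list, did not pass, with log2 fold changes of 0.09, 0.0024 and 0.05; CLDN7 and OCLN have exons on alternative sequences, so their levels are uncertain. The number that fell was 1 without replicate 1 labelled HMGB2 siRNA, without replicate 2 of that label and without scramble replicate 1, and 0 with DESeq2.

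Mesenchymal genes split evenly. Of 24 listed, 21 could be tested, and 5 rose, 5 fell and 11 were not called (median log2 fold change -0.02). Over all genes tested, 16.7% rose and 14.1% fell. SPARC, a matricellular protein, had 369 and 362 CPM in the libraries labelled HMGB2 siRNA, against 497 and 512 CPM in those labelled scramble, a log2 fold change of -0.47 ± 0.06 (SE, edgeR adjusted p = 6.53e-08). MMP14, a membrane-bound metalloproteinase, changed by -0.55 and LOXL2, a collagen crosslinking enzyme, by -0.53 on the same scale. The 5 that rose included COL3A1, a fibrillar collagen (2.20-fold), and THY1, a surface glycoprotein (1.98-fold), both at low counts. COL3A1 had 87 and 48 counts under the HMGB2 siRNA label, against 25 and 25 counts under the scramble label. THY1 had 109 and 92 counts, against 47 and 38 counts. The COL3A1 call was not kept with DESeq2, as given above. The others were CDH2, which encodes N-cadherin (1.35-fold), AXL, a receptor tyrosine kinase (1.23-fold), and MMP2, a gelatinase (1.18-fold). VIM, the mesenchymal intermediate filament, had 2477 and 2351 CPM, against 2230 and 2155 CPM, and did not pass (edgeR adjusted p = 0.121). The number that rose was 2 and 3 without replicate 1 or 2 labelled HMGB2 siRNA, and 9 and 3 without scramble replicate 1 or 2.

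Other transcription factors of both sides also moved in both directions. Among 15 other EMT-linked factors, 12 could be tested, of which 2 rose and 3 fell (median log2 fold change -0.03). FOSL1, an AP-1 subunit, had 142 and 145 CPM in the libraries labelled HMGB2 siRNA, against 97.9 and 93.8 CPM in those labelled scramble, and was 1.49-fold higher. FOXQ1, a forkhead factor, had 29.7 and 30.6 CPM, against 45.2 and 51.2 CPM (log2 fold change -0.68 ± 0.08 SE, edgeR adjusted p = 8.05e-09). SOX4 changed by -0.52 and HMGA2, an architectural chromatin protein, by -0.24 on the log2 scale, the last not passing without replicate 1 labelled HMGB2 siRNA (-0.20). Only 1 factor was called higher without either library labelled HMGB2 siRNA, and likewise with upper-quartile and total-count scaling, without the low-count filter and with DESeq2.

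Among 15 other epithelial factors, 10 could be tested, of which 3 rose and 1, GRHL3, fell (median log2 fold change 0.39). FOXA1, a pioneer factor of endodermal epithelia, had 6.97 and 4.58 CPM in the libraries labelled HMGB2 siRNA, against 3.68 and 2.21 CPM in those labelled scramble, and was 1.99-fold higher. KLF5, a zinc finger factor, had 1.21 and 1.22 CPM, against 0.272 and 0.72 CPM, and TFAP2A rose 1.145-fold. The FOXA1 call was lost without replicate 1 labelled HMGB2 siRNA (log2 fold change 0.63). KLF5 did not pass without replicate 1 or 2 of that label (1.30 and 1.29) or without scramble replicate 1 (0.76). TFAP2A did not pass without those same libraries (0.25, 0.15 and 0.16) or with upper-quartile (0.14) or total-count (0.15) scaling or DESeq2 (0.20), and DESeq2 gave no adjusted p for KLF5. The number of these factors called higher was 0 without replicate 1 labelled HMGB2 siRNA and 1 without replicate 2 of that label, without scramble replicate 1 or with DESeq2, which called FOXA1.

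Genes whose splicing ESRP1 and ESRP2 are known to direct can be followed here only as whole genes, since the tables do not separate isoforms. Of 10 listed and tested, 3 rose, 2 fell and 5 did not pass. FGFR2, whose epithelial isoform depends on ESRP proteins, had 2.35 and 2.49 CPM in the libraries labelled HMGB2 siRNA, against 1.45 and 1.10 CPM in those labelled scramble, and was 1.88-fold higher. RAC1, a small GTPase, rose 1.32-fold, while CD44, a hyaluronan receptor, changed by -0.19 and EXOC7, an exocyst subunit, by -0.26 on the log2 scale. CD44 and EXOC7 did not pass without replicate 1 (-0.20 and -0.25) or replicate 2 (-0.17 and -0.26) labelled HMGB2 siRNA. FGFR2 did not pass without either of these (0.95 and 0.88) or without scramble replicate 2 (0.73), nor with DESeq2 (0.92). For the list, the counts were 1 higher and 0 lower without either library labelled HMGB2 siRNA.

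Other splicing regulators linked to EMT included several called genes. Of 8 listed and tested, 5 rose and 0 fell, with a median log2 fold change of 0.25. Calls were common in this comparison, with 16.7% higher and 14.1% lower over all genes tested. MBNL1, a muscleblind protein, had 159 and 163 CPM in the libraries labelled HMGB2 siRNA, against 69.1 and 63.0 CPM in those labelled scramble, and was 2.44-fold higher. QKI, a STAR-family protein that promotes mesenchymal splicing, had 199 and 190 CPM, against 105 and 101 CPM (1.89-fold, edgeR adjusted p = 2.99e-16). PTBP1 rose by 0.32 on the log2 scale, and RBM47, which is known from epithelial rather than mesenchymal cells, rose 1.64-fold. RBM47 did not pass without replicate 1 labelled HMGB2 siRNA (log2 fold change 0.63) or without scramble replicate 1 (0.50), nor with DESeq2 (0.71), and 3 of the 8 were higher without the first of these libraries. PTBP1 shares 35.3% of its exonic bases with PLPPR3 on the opposite strand. PLPPR3 itself had a log2 fold change of 0.42 (edgeR adjusted p = 2.59e-05). How reads in that stretch were assigned is not known, so the level of PTBP1 is uncertain.

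**Figure D4:**
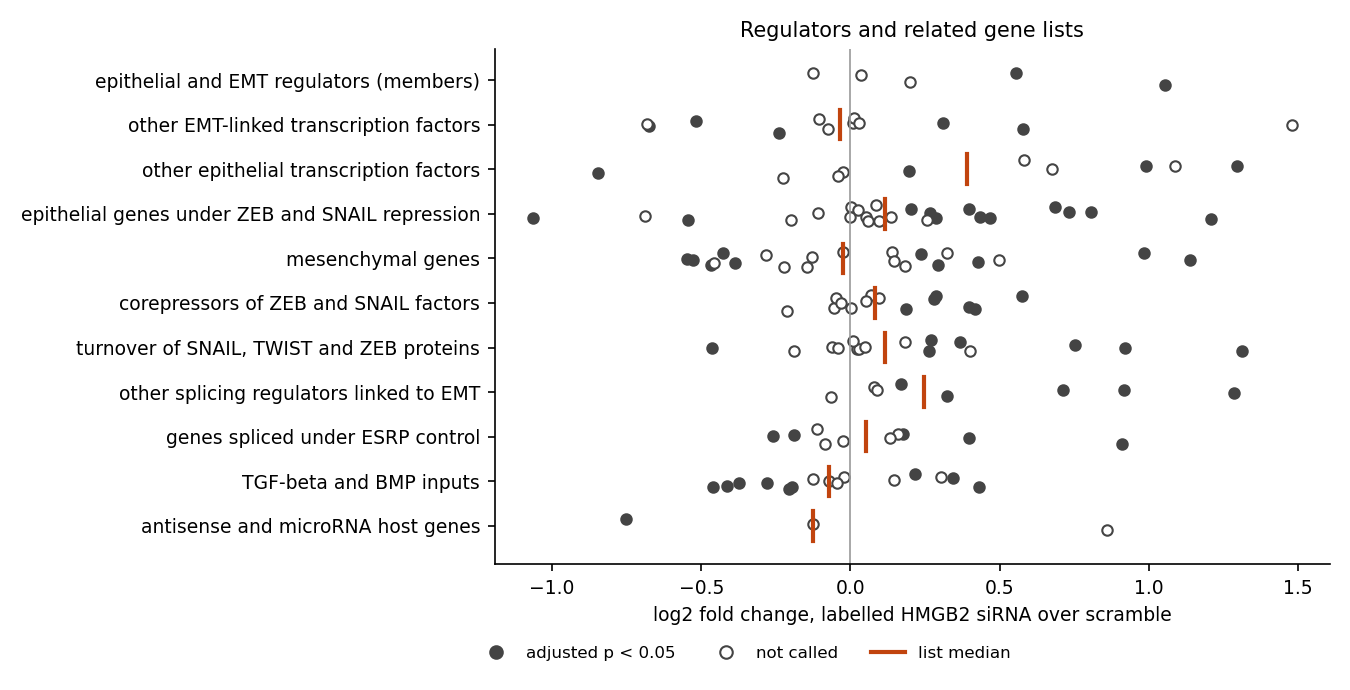
Log2 fold change, labelled HMGB2 siRNA over scramble, of every tested gene of the regulator set and of 10 related lists (filled: adjusted p under 0.05; orange bar: list median, not drawn for the regulators). ELF3 at 0.56 and ESRP1 at 1.05 are the filled regulators, the genes under ZEB and SNAIL repression have a median of 0.12, and mesenchymal genes one of -0.02.

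The genes whose profile over the 4 libraries was most like that of ELF3 were DUSP1, a dual-specificity phosphatase, SCARA3, a scavenger receptor, and TINAGL1. Likeness was the Euclidean distance between centred log2 CPM profiles, among 10660 other tested genes with a mean of at least 5 CPM, and was 0.07 for each. DUSP1 had 105 and 102 CPM in the libraries labelled HMGB2 siRNA, against 81.1 and 63.5 CPM in those labelled scramble. SCARA3 and TINAGL1 had log2 fold changes of 0.56 and 0.54. With 4 libraries this is a description only, and SCARA3 shares 28.7% of its exonic bases with CCDC25 on the opposite strand.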

How the data were processed

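Each library has a table of unnormalized whole-number read counts per gene, deposited by the authors with exon coordinates and a gene length in bases. STAR, SAMtools 1.9, featureCounts of Subread 1.6.3 and DESeq2 are named per the submitters' processing notes, which give hg38 (GRCh38) as the genome. How strand, multimapping and overlaps were handled is not given in the sources used here. The sample of a table is the one the deposit records, and its group is that of the label, although file names and column headers name the other treatment.

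The counts were tested with edgeR 4.0.16 in R 4.3.3 (glmQLFit, glmQLFTest; TMM scaling; filterByExpr with a smallest count of 10 and total of 15), with the group as the only term, over 15161 genes. P-values were Benjamini-Hochberg adjusted over all of them and called under 0.05. Intervals are 95%, from the test's own degrees of freedom. CPM used TMM-scaled library sizes, and TPM was computed from counts and deposited lengths. Replicate libraries differed by more than sampling noise (chi-square per degree of freedom 3.10 for the libraries labelled HMGB2 siRNA and 5.68 for scramble). Exonic overlaps were found from the tables' coordinates. The procedure was tested on simulated counts.

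The members, 10 related lists and 4 marker lists were chosen with earlier results of these data known. Named genes were the members, in each list up to 4 called genes, by smallest p (where none was called, the 2 with the highest mean CPM), and the 3 genes nearest in profile to the called member of each side with the smallest p; no EMT factor was called. Other genes and the within-library ratios were picked after their values were seen. Alternatives were other scalings (RLE, total-count, upper-quartile), limma-voom (limma 3.58.1), DESeq2 1.42.0, the test without a low-count filter, a replicate block and leaving out each library in turn. Some genes that the naming rule selects are not reported here.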

Additional observations from a re-analysis of the deposited data

How the results depend on the processing

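HMGB2, ELF3 and the absence of a call for ZEB1 and SNAI1 kept their side of the threshold under every alternative that was run, HMGB2 with log2 fold changes of 3.02 to 3.11 and ELF3 of 0.36 to 0.80. SNAI1 changed sign with upper-quartile (-0.014) and total-count (-0.0096) scaling, and ranged from -0.0017 to 0.0889 when single libraries were left out. Leaving out single libraries gave 0.91 to 1.23 for ESRP1 and 0.12 to 0.30 for ESRP2, and 1 to 3 regulators called higher. DESeq2 called 1 regulator, ELF3, and gave no adjusted p for ESRP1. Over all genes, leaving out single libraries gave 1481 to 2904 called higher and 903 to 2291 called lower, and DESeq2 called 1076 lower. Over the 10 related lists the same omissions gave 25 to 44 genes called higher, against 43 with all libraries, and 11 to 20 called lower, against 21, where DESeq2 called 13 lower. CD68 ranged from -0.18 to 0.12. A library left alone in its group was assumed to vary like the others, and the causes of these changes were not tested. Libraries with the same number did not deviate together over the 15161 genes tested (correlation of deviations -0.0144). This single value cannot exclude a pairing that touches only some genes. With the replicate block 2446 genes were higher and 2011 lower, ELF3 was at 0.56 and ESRP1 at 1.05, and no call among the regulators changed. Depth limits ZEB2, SNAI2, TWIST1, GRHL2 and OVOL1, which had at most 4 counts in any library.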

Other observations

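The enzymes and cofactors through which ZEB and SNAIL factors repress and are degraded mostly rose or did not pass the test in the libraries labelled HMGB2 siRNA. Beside each list count of this section stand the shares over all genes tested, 16.7% called higher and 14.1% lower. Of 15 listed corepressor genes, 14 could be tested and 6 rose, among them the histone methyltransferases EZH2 (76.1 and 76.9 CPM, against 58.1 and 56.4 CPM in those labelled scramble) and SUV39H1 (1.49-fold), the DNA methyltransferase DNMT1 (1.32-fold) and the demethylase KDM1A (1.22-fold). KDM1A did not pass without replicate 1 labelled HMGB2 siRNA (log2 fold change 0.27), and 0 corepressors fell except for 1 without scramble replicate 1 or with upper-quartile scaling. EHMT2 had 0 counts in every library and has exons on alternative sequences, so its level is uncertain. Of 16 genes for the turnover of SNAIL, TWIST and ZEB proteins, 6 rose and 1 fell. MDM2, a ubiquitin ligase best known for p53, had 66.2 and 63.3 CPM in the libraries labelled HMGB2 siRNA, against 23.3 and 29.0 CPM in those labelled scramble, and was 2.48-fold higher (edgeR adjusted p = 1.32e-17). The F-box genes BTRC and FBXO45 were 1.89-fold and 1.68-fold higher and the kinase gene GSK3B 1.29-fold. The gene that fell was no longer called, leaving 0, without replicate 1 or 2 labelled HMGB2 siRNA or without scramble replicate 2, and likewise with DESeq2 and without the low-count filter, while 2 fell with upper-quartile and with total-count scaling.

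Of 16 TGF-beta and BMP genes, which feed into SNAI1 and ZEB1 in many cells, 15 could be tested, with 3 higher and 6 lower. TGFB2, a ligand, had 42.6 and 40.2 CPM in the libraries labelled HMGB2 siRNA, against 32.4 and 29.1 CPM in those labelled scramble, while its receptor gene TGFBR1 had 26.8 and 25.2 CPM, against 33.7 and 38.2 CPM. Also called lower were TGFB3 (log2 fold change -0.415), BMP7 (-0.37), ID3 (-0.28), TGFB1 (-0.21) and TGFBR2 (-0.20). ID3 has exons on an alternative sequence, so its level is uncertain. ID1, a target of BMP signalling, rose 1.27-fold and SKI 1.16-fold, the last not passing without replicate 1 or 2 labelled HMGB2 siRNA (log2 fold changes 0.20 and 0.25). The number that fell was 1 without either of these libraries and 3 without scramble replicate 1, 1 with DESeq2 and 3 without the low-count filter, and 5 rose without scramble replicate 2. Of 6 antisense and host transcripts, 3 could be tested, 0 rose (1 without the low-count filter) and 1 fell: SNAI3-AS1 had 3.91 and 4.34 CPM, against 6.63 and 7.20 CPM (log2 fold change -0.75 ± 0.18 SE, edgeR adjusted p = 0.000887). KDM1A, MDM2, GSK3B, MBNL1, TFAP2A, FOXA1, TGFB2, KRT7, KRT8, SPARC, LOXL2 and EXOC7 each share exonic bases with a gene on the opposite strand. Per opposite-strand partner this was 0.596% (GSK3B) to 11.6% (EXOC7) of the exonic bases of the gene named. On the same strand, TGFB2 shares 1370 exonic bases, 23.0% of its own, with TGFB2-OT1, which had 0 counts in every library. How reads there were assigned is not known, so the level of TGFB2 is uncertain.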
